A study of Mus musculus with 54 samples.

Results

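The genes described here act in meiotic prophase, the stage at which homologous chromosomes pair, recombine and are joined along their length. The group holds 37 genes, named by function and matched by symbol, out of 26264 genes counted in mouse testis and ovary, and all 37 were found in both count tables. In the testis of a mouse past puberty new cells enter meiotic prophase continuously. In the ovary, oocytes pass through it before and around birth and then stay arrested, so that an ovary in the weeks after birth holds oocytes but no new meiotic entry. The synaptonemal complex is a protein ladder between paired chromosomes. The SPO11 complex cuts the DNA, DMC1 and its partners insert the cut ends into the homologous chromosome, and MSH4-MSH5 and MLH3 act in turning some of these joints into crossovers.

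The series measured RNA by sequencing in 54 libraries of testis or ovary, in 18 groups of 3 libraries marked A, B and C. In the F1 generation, pregnant mice and then their offspring drank water with 0.001% ethanol (control), dose 1 or dose 2, starting at 8.5 days post-coitum and ending when the animals were killed, at 35 days after birth for testes and 30 days for ovaries. Dose 1 held ibuprofen (IBU) at 11.3, its metabolite 2hIBU at 90, diclofenac (DCF) at 22.5 and ethinylestradiol (EE2) at 2.25 ng/L, and dose 2 held 113, 225, 112 and 45 ng/L of the same compounds in the same order. F2 testes and ovaries came from F1 parents of 6 crosses, which are called biparental dose 2, paternal dose 2, maternal dose 2, paternal dose 1, maternal dose 1 and control cross by which parent belonged to an exposed F1 group; the labels give no treatment of the F2 animals themselves. The labels name no strain and do not say whether libraries A, B and C are separate animals, litters or pools, so p-values measure only the spread between these libraries.

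Total counts ran over 31.8 to 122 M reads in F1 testis, 31.6 to 48.2 M in F2 testis, 36.6 to 57.4 M in F1 ovary and 37.9 to 84.7 M in F2 ovary. The tissue labels matched the markers: in control animals all 12 round and all 12 elongating spermatid markers were higher in testis in both generations, all 8 granulosa cell markers were lower, and 11 (F1) and 12 (F2) of 12 oocyte markers were lower (edgeR quasi-likelihood test, Benjamini-Hochberg adjusted p at most 0.05). F1 ovary control library A stood apart. In counts per M reads (CPM), it held 2093 CPM of elongating spermatid markers summed over 12 genes, against 112.8 to 242.1 CPM in the other 8 F1 ovary libraries. Medians and calls of comparisons that use it are therefore also given without it. Spermatid transcripts were not confined to it. Round spermatid markers summed to 4.70 to 19.5 CPM in the other 8 F1 ovary libraries, against 1.72 to 3.82 CPM in F2 ovary. The spermatid marker Prm1 had 2.44 to 16.3 CPM in them, against 0 to 0.2 CPM in F2 ovary. Values without control A are therefore not free of such transcripts, and their source was not tested. In F2 ovary, libraries B and C of maternal dose 1 were low in many of the meiotic genes and are described separately.

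The promoters of 5 members are printed as examples: Sycp3, Tex12 and Sycp1 of the synaptonemal complex, the cohesin gene Smc1b, and Trip13, which behaved differently from most of the group between tissues. Each is the 250 bases before the transcription start in RefSeq on GRCm38.p6, written 5′ to 3′ on the gene's strand, with motif matches in capitals. The positions are chr10:88459337-88459586 on the plus strand for Sycp3, chr9:50561269-50561518 on the minus strand for Tex12, chr3:102936101-102936350 on the minus strand for Sycp1, chr15:85131958-85132207 on the minus strand for Smc1b and chr13:73937768-73938017 on the minus strand for Trip13.
Sycp3: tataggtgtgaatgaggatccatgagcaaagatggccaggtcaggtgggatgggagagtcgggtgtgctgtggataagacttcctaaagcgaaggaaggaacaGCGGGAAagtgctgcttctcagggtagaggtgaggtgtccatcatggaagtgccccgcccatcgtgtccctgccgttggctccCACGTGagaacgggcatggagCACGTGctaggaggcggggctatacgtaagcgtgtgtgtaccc
Tex12: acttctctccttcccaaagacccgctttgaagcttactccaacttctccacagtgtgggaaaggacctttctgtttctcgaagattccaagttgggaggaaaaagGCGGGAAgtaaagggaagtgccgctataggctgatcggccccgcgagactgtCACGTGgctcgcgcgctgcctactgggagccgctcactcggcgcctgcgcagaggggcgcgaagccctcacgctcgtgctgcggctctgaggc
Sycp1: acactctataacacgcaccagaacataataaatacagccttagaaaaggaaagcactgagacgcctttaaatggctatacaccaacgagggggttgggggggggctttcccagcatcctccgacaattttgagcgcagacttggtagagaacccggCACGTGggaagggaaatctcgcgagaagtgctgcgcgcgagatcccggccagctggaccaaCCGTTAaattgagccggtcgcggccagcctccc
Smc1b: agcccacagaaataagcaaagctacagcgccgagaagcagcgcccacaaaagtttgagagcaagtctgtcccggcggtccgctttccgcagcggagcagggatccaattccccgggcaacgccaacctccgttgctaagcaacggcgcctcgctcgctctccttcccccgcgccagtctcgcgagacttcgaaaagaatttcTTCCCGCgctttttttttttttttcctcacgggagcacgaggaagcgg
Trip13: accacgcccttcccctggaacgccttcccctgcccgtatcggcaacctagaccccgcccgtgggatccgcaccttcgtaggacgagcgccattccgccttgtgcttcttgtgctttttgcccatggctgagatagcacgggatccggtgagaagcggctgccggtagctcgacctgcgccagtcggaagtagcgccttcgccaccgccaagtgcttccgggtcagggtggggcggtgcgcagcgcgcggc
The capitals mark GCGGGAA or its reverse complement (a match for E2F factors such as E2F6), CACGTG (an E-box, bound by MAX, MGA and USF proteins) and TAACNG or its reverse complement (a match for MYB factors such as MYBL1). A promoter was matched for 31 of the 37 members, and none was matched for Spo11, Meiob, Tex15, Majin, Terb2 and Ythdc2. On either strand, GCGGGAA stood in 8 of the 31 member promoters (25.8%), against 3.84% of the promoters of 27025 genes. CACGTG stood in 6 (19.4%) against 6.05%, TAACNG in 9 (29.0%) against 19.8%, and CNCCTCAG, the STRA8-MEIOSIN motif, in 3 (9.68%) against 6.39%. The matches printed here do not overlap one another, and the median number of CpG dinucleotides was 13 in member promoters against 6 in all promoters. No match stood in the promoters of Trip13 and Mnd1. The same held for Syce1, Syce3, Rec8, Rad21l, Prdm9, Mei1, Ankrd31, Dmc1, Spata22, Mlh3 and Terb1, which were higher in testis. Whether matches go with the difference between tissues was not tested. A match is a string of letters and not a measured site.

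Between the tissues of control animals, 34 of 37 members were higher in testis in each generation and 33 in both, by a median log2 fold change of 4.43 in F1 and 5.81 in F2. The medians over all genes tested were -0.0155 and -0.0491. Testis and ovary differ in most of their transcripts: 83.4% of 20336 genes passed the test in F1 and 87.9% of 20583 in F2. Of all genes, 41.9% (F1) and 43.6% (F2) were higher in testis and 41.6% (F1) and 44.3% (F2) lower. That background stands behind each member count. Rec114 passed only in F1 and Tex15 only in F2, no member was lower in F1, and 1, Mnd1, was lower in F2. Mei1, Mei4 and Terb2 had too few reads in F1 ovary for the count filter within that tissue. In F2 ovary the same held for them and for Syce3, Spo11 and Meioc. These members entered the comparison of tissues through their testis counts, so a call in the other direction was hardly possible for them. Tissue goes with sex, with age and with the count table, which cannot be told apart from it, and in whole tissue more cells of a type and more RNA per cell cannot be told apart either. Another scaling of the libraries (relative log expression, RLE) moved the median of all genes to 0.22 in F1 and 0.37 in F2, and no scaling moved it to -0.42 and -0.38, while the members' median stayed 4.44 to 4.49 (F1) and 5.86 (F2) above that of all genes. Leaving out F1 ovary control A gave 34 members higher, a median of 5.63, and 81% of 20539 genes called, with 41.4% of genes higher in testis.

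**Figure D1:**
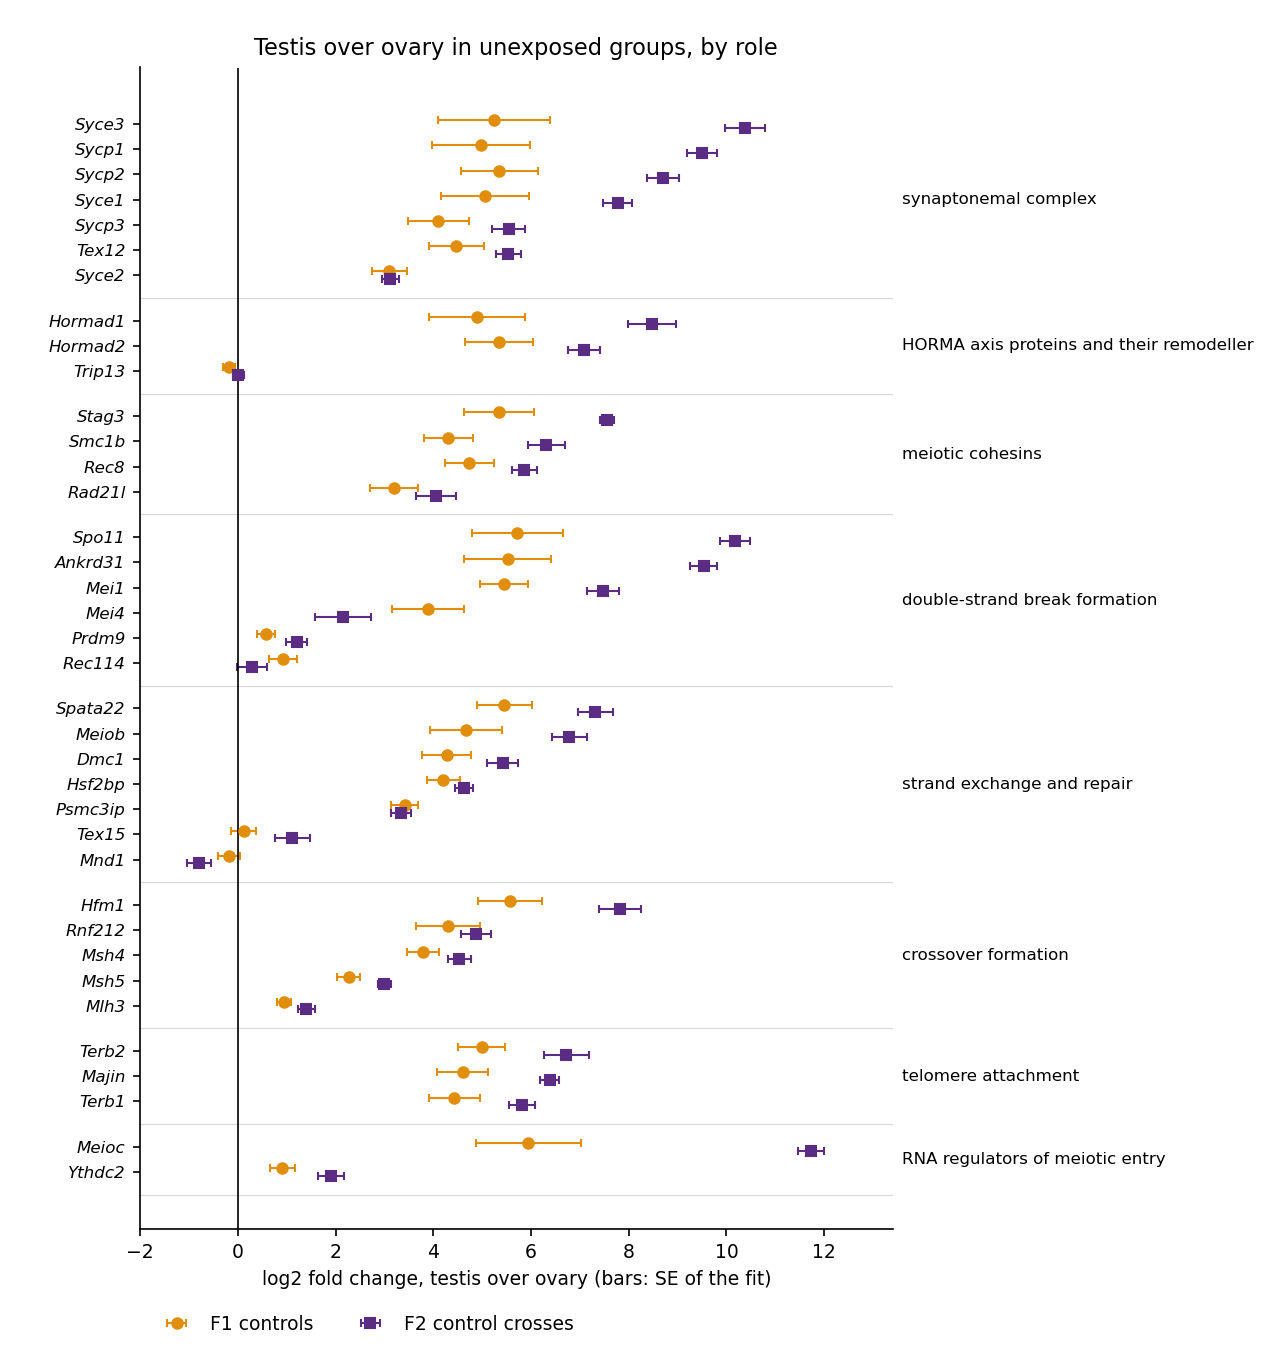
The log2 fold change of testis over ovary in control animals is plotted for each of the 37 members, grouped by role, with F1 as circles and F2 as squares and bars for the standard error. Most members lie between 3 and 12 on the log2 axis, while Trip13, Mnd1, Tex15, Prdm9, Rec114, Mlh3 and Ythdc2 lie lower, between -0.80 (Mnd1 in F2) and 1.91 (Ythdc2 in F2).

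On the scale fitted to both tissues, all 7 synaptonemal complex genes were higher in testis, with a median log2 fold change of 4.97 in F1 (7.20 without ovary control A) and 7.77 in F2. Sycp1, the transverse filament that bridges the chromosome axes, had 189, 197 and 183 CPM in the F2 testis control crosses, against 0.297, 0.299 and 0.202 CPM in the F2 ovary control crosses. The groups do not overlap and the log2 fold change was 9.50 ± 0.30 (SE; adjusted p = 1.02e-22, edgeR). In F1 Sycp1 had 199, 129 and 137 CPM in testis controls and 13.5, 0.723 and 0.746 CPM in ovary controls, where library A was the high one. Its F1 log2 fold change was 4.97 ± 1.00 with library A and 7.72 ± 0.70 without it. Syce3, a central element protein, had 35.4, 51.8 and 54.0 CPM in F2 testis and 0, 2 and 5 reads in the F2 ovary libraries, a log2 fold change of 10.38. Syce2, also of the central element, was the exception in size, with 144, 123 and 144 CPM in F2 testis against 12.4, 20.2 and 14.7 CPM in F2 ovary (log2 fold change 3.12 ± 0.17). Every F2 ovary library held Syce2 RNA at more than 12 CPM.

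The chromosome axis genes divided. The meiotic cohesin subunits Rec8, Rad21l, Smc1b and Stag3, which hold sister chromatids together along the axis, were higher in testis in 4 of 4, with medians of 4.52 (F1, or 5.62 without ovary control A) and 6.09 (F2). Stag3 had 666, 647 and 640 CPM in F2 testis against 3.16, 4.17 and 3.06 CPM in F2 ovary, a log2 fold change of 7.56 ± 0.14. Hormad1, which marks unsynapsed axes, had 119, 120 and 116 CPM in F2 testis against 0.0496, 0.216 and 0.617 CPM in F2 ovary. Trip13, the ATPase that strips HORMAD proteins from the axis, did not follow them. It had 14.3, 13.1 and 13.0 CPM in F2 testis and 14, 12.1 and 13.9 CPM in F2 ovary, and 12.8, 10.5 and 11.9 CPM in F1 testis against 12.9, 14.6 and 12.4 CPM in F1 ovary. The groups overlapped in both generations, and the log2 fold changes of 0.01 ± 0.12 (F2, adjusted p = 0.93) and -0.18 ± 0.13 (F1, adjusted p = 0.205) missed the threshold. The call and its direction depended on the scaling. In F2 Trip13 was called higher in testis with RLE scaling (0.427, adjusted p = 0.000781) and by DESeq2 (0.427, adjusted p = 0.000126), and lower with no scaling (-0.319, adjusted p = 0.0159). In F1 it was 0.0545 with RLE scaling and was called lower with no scaling (-0.58, adjusted p = 0.00986), and it was -0.204 without ovary control A.

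Genes for making DNA breaks ranged over the whole scale. Spo11, the enzyme that cuts, had 71.7, 70.1 and 60.6 CPM in F2 testis against 0, 0.0333 and 0.106 CPM in F2 ovary, which are 0, 2 and 10 reads (log2 fold change 10.18 ± 0.31). Ankrd31, a partner of REC114, had 86.4, 82.1 and 85.1 CPM in F2 testis against 0.0496, 0.133 and 0.138 CPM in F2 ovary. Prdm9, the histone methyltransferase that places the cuts, differed far less, with 11.1, 8.08 and 8.31 CPM in F2 testis against 4.69, 2.78 and 4.49 CPM in F2 ovary (log2 fold change 1.20 ± 0.205, adjusted p = 3.75e-06). Its F1 log2 fold change was 0.57 (adjusted p = 0.0113), or 0.547 without ovary control A (adjusted p = 0.0334). The call was lost with no scaling (0.177, adjusted p = 0.507) and without testis control A (0.367, adjusted p = 0.0822). Rec114 was higher in F1 testis by 0.92, or 1.12 without ovary control A, and in F2 it had 1.48, 1.6 and 1.09 CPM in testis against 0.711, 1.46 and 1.24 CPM in ovary (0.28 ± 0.31, adjusted p = 0.392). In F2 it was called higher with RLE scaling (0.688, adjusted p = 0.046) and by DESeq2 (0.689, adjusted p = 0.0407), and was -0.0498 with no scaling. Mei4 was scarce in both tissues, at 0.448, 0.723 and 0.473 CPM in F2 testis and 0.116, 0.0665 and 0.170 CPM in F2 ovary.

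Strand exchange genes included the group's exceptions. Dmc1, the meiotic recombinase, had 21.4, 18.6 and 16.3 CPM in F2 testis against 0.611, 0.316 and 0.394 CPM in F2 ovary (log2 fold change 5.42 ± 0.32). Spata22, which binds single-stranded DNA with MEIOB, had 23.9, 22.6 and 22.2 CPM in F2 testis against 0.0826, 0.249 and 0.106 CPM in F2 ovary (7.31 ± 0.36). PSMC3IP and MND1 work as a pair that stimulates DMC1, yet their RNAs differed in direction. Psmc3ip had 99.1, 102 and 93.9 CPM in F2 testis against 7.82, 12.3 and 8.95 CPM in F2 ovary. Mnd1 had 2.4, 3.59 and 3.52 CPM in F2 testis against 3.88, 7.40 and 5.24 CPM in F2 ovary, every ovary library being above every testis library (log2 fold change -0.80 ± 0.24, adjusted p = 0.00337). In F1 Mnd1 had 4.67, 3.63 and 5.31 CPM in testis and 4.39, 6.12 and 4.92 CPM in ovary, which overlap (-0.18 ± 0.22, adjusted p = 0.44). With RLE scaling the Mnd1 value in F2 was -0.395, no longer past the threshold, and the F1 value was 0.05. With no scaling the F1 value was -0.59 and called lower (adjusted p = 0.0241), and without ovary control A it was -0.287.

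Tex15, needed in mouse spermatocytes for recombination and in male germ cells for silencing transposons, was plentiful in both tissues. It had 127, 101 and 83.4 CPM in F1 testis against 107, 87.4 and 93.7 CPM in F1 ovary, which overlap (log2 fold change 0.12 ± 0.25, adjusted p = 0.672, with -0.27 under no scaling and 0.198 without ovary control A). In F2 it had 150, 135 and 137 CPM in testis against 81.1, 41.8 and 72.2 CPM in ovary (1.11 ± 0.36, adjusted p = 0.00566). The difference between the generations was not tested.

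All 5 crossover genes were higher in testis, with medians of 3.79 (F1, or 4.39 without ovary control A) and 4.53 (F2), and the size differed between partners. Hfm1, a helicase, had 33.7, 70.4 and 56.3 CPM in F2 testis against 0.182, 0.299 and 0.223 CPM in F2 ovary (log2 fold change 7.82 ± 0.43), and the log2 fold change of Msh4 was 4.53 ± 0.24. Msh5, whose protein pairs with MSH4, had 23.1, 27 and 25 CPM in F2 testis against 3.37, 2.81 and 3.23 CPM in F2 ovary (2.99 ± 0.13). Mlh3, which acts late in crossover formation, had 62, 60 and 62.2 CPM in F2 testis against 27.3, 19.5 and 23.1 CPM in F2 ovary (1.40 ± 0.175). The 3 genes that tether telomeres to the nuclear envelope, Majin, Terb1 and Terb2, were all higher in testis, with medians of 4.60 (F1, or 5.72 without ovary control A) and 6.38 (F2).

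The RNA-binding partners Meioc and Ythdc2, which act together in male germ cells entering meiosis in mice, had differences between tissues of very unlike size. Meioc had the largest difference of the 37 in F2: 199, 205 and 194 CPM in F2 testis against 0.0330, 0.0665 and 0.0638 CPM in F2 ovary, which are 2, 4 and 6 reads (log2 fold change 11.73 ± 0.27). Ythdc2 had 45.5, 47.3 and 45.2 CPM in F2 testis against 16.2, 9.71 and 10.8 CPM in F2 ovary (1.91 ± 0.26). In F1 the log2 fold change of Meioc was 5.95, the largest of the 37, but without ovary control A it was 8.80, below Spo11 at 8.99 and Syce3 at 8.95. That of Ythdc2 in F1 was 0.91, or 0.987 without ovary control A, and with no scaling it missed the threshold (0.521, adjusted p = 0.137).

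Levels between genes were compared per kilobase of exon length (GENCODE M21), which only approximates the transcripts counted. In the F2 testis control crosses Syce1 was highest at 214 ± 13.0 CPM per kb (SD, n = 3), followed by Sycp3 at 112 ± 1.84, Stag3 at 101 ± 1.24, Sycp2 at 76.1 ± 3.99 and Syce3 at 75.9 ± 17.0. Sycp3 and Stag3 differ by more than their spread, while Sycp2 and Syce3 do not. At the low end were Rec114 at 0.971 ± 0.184 and Mei4 at 0.119 ± 0.034 CPM per kb. Structural genes led, and 4 of the 6 break formation genes were among the last 5, with the cohesin gene Rad21l at 2.11 ± 0.332. By role, the highest and lowest members were Syce1 and Tex12 (10.8 ± 0.202) in the synaptonemal complex, Hormad1 (61.3 ± 1.31) and Trip13 (3.46 ± 0.146) among the HORMA group, Spo11 (15.4 ± 1.3) and Mei4 in break formation, Psmc3ip (48.3 ± 2.17) and Mnd1 (3.23 ± 0.711) in strand exchange, Mlh3 (7.25 ± 0.107) and Msh4 (2.89 ± 0.0608) in crossover formation, Terb1 (11.2 ± 0.846) and Terb2 (3.81 ± 0.0922) at telomeres, and Meioc (38.6 ± 1.24) and Ythdc2 (4.63 ± 0.153), all in CPM per kb. In the F2 ovary control crosses the order was different, with Syce2 first at 8.99 ± 2.53 CPM per kb, then Tex15 at 7.51 ± 2.23, Mnd1 at 7.07 ± 2.46, Psmc3ip at 6.00 ± 1.61 and Trip13 at 4.29 ± 0.24. Neighbours among the first 4 of these do not differ beyond their spread.

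**Figure D2:**
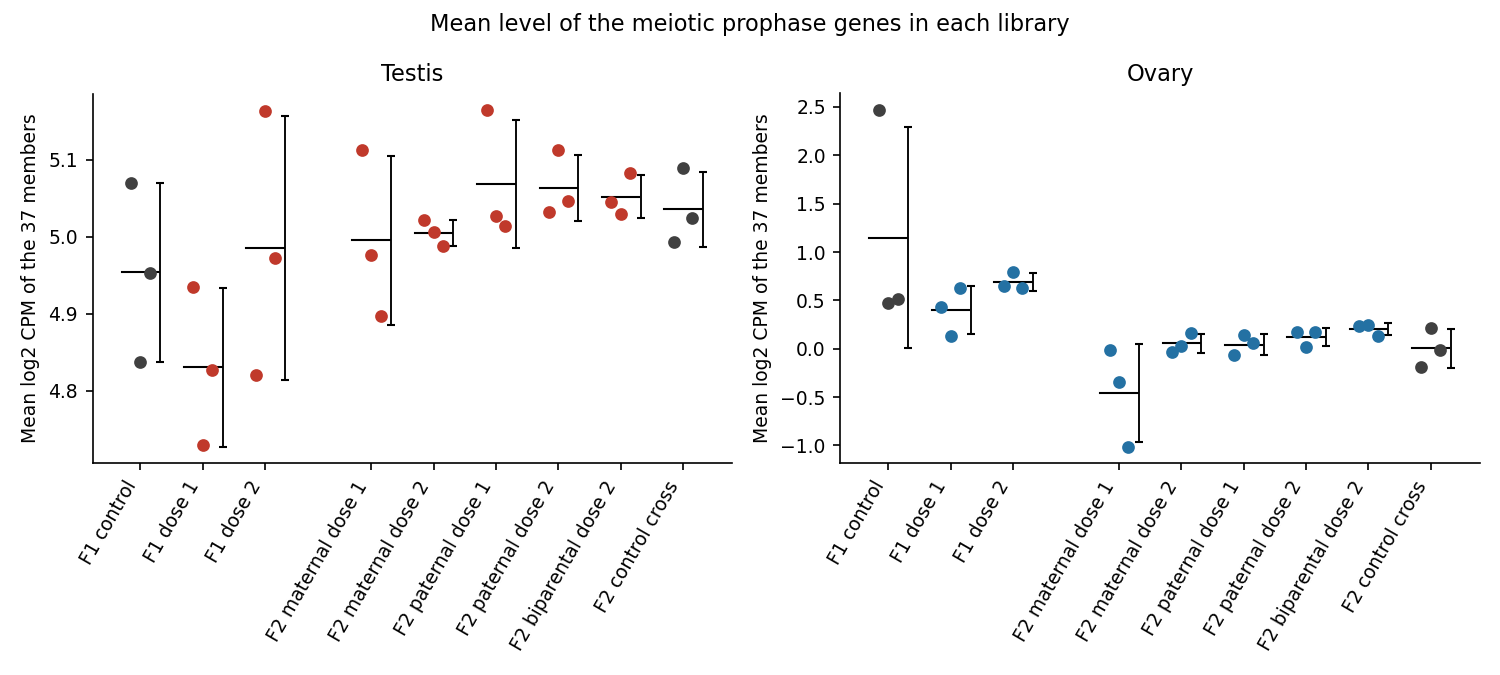
The mean log2 CPM over the 37 members is plotted for every library, with testis and ovary in separate panels; points are libraries, lines are group means and bars are the SD of 3 libraries. Testis libraries lie between 4.73 and 5.16, F1 ovary control A stands at 2.47 above the other F1 ovary libraries (0.136 to 0.793), and maternal dose 1 C is the lowest F2 ovary library at -1.01.

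Across the treated and control groups of one tissue, no member passed the test in any of 20 comparisons, 14 of a treated group or cross with its control and 6 between treated groups. The same 0 calls were made by edgeR's quasi-likelihood test with Benjamini-Hochberg adjustment and by DESeq2. The number of members at an unadjusted p under 0.05 was at most 9 in one F2 testis comparison and 12 in one F1 ovary comparison, and stands beside each comparison. A missed threshold does not show that the levels were alike.

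In F1 testis the mean log2 CPM over the members was 4.95 ± 0.12 in controls, 4.83 ± 0.10 at dose 1 and 4.99 ± 0.17 at dose 2 (SD, n = 3 each). At dose 1, 9 of 37 members had a log2 fold change above 0 and the median was -0.18, against 48.1% of genes above 0 and a median of -0.0101 over all 19025 genes tested. Without control A the members' median at dose 1 was -0.0792. No member passed (edgeR; 0 at an unadjusted p under 0.05), where 0.021% of all genes did and 3.18% were at an unadjusted p under 0.05. Only 2 members had dose 1 libraries all above the controls and none had them all below, against 6.19% and 6.22% of genes. Mei1, which is needed for the breaks, had the lowest p, with 5.11, 4.92 and 6.48 CPM at dose 1 against 8.22, 6.44 and 6.84 CPM in controls (log2 fold change -0.38 ± 0.19, adjusted p = 0.998). The dose 1 value of library C lay just above the lowest control.

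At dose 2, 22 of 37 members had a log2 fold change above 0 in F1 testis, against 52.2% of genes, and the median was 0.0415. Leaving out control B turned that median to -0.0235, leaving out dose 2 B turned it to -0.0188, and leaving out control A raised it to 0.169. No member passed, where 0.00526% of genes did, and 0 members were at an unadjusted p under 0.05, against 1.93% of genes. Psmc3ip was the only member whose groups did not overlap, with 94.2, 123 and 106 CPM at dose 2 against 87.2, 89.4 and 92.2 CPM in controls (log2 fold change 0.26 ± 0.15, adjusted p = 0.982). The share of genes with all dose 2 libraries above all controls was 1.79%. Compared with dose 1 directly, dose 2 had 32 of 37 members above 0 and a median of 0.18, against 56.9% of genes above 0, and no member passed (0.0263% of genes did; 1 member at an unadjusted p under 0.05, against 3.31% of genes). Without dose 2 B, 24 of 37 members were above 0 and the median was 0.0658. The member at an unadjusted p under 0.05 was Terb2, with 7.73, 9.53 and 9.78 CPM at dose 2 against 7.63, 5.85 and 6.69 CPM at dose 1 (adjusted p = 1). All 3 F1 testis comparisons share libraries in pairs and are not independent.

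Some members varied widely between F1 testis libraries of one group. Sycp1 had 170, 110 and 115 CPM in controls, 142, 65.2 and 96.7 CPM at dose 1 and 103, 215 and 88.2 CPM at dose 2, so that dose 2 B was the highest of the 9 and dose 1 B the lowest. Syce2 had 121, 138 and 141 CPM in controls, 150, 187 and 184 CPM at dose 1 and 164, 89.3 and 285 CPM at dose 2, where B was the lowest and C the highest. These libraries also differed in other measures: elongating spermatid markers summed to 13270 CPM in dose 2 B and 36070 CPM in dose 2 C, with the other 7 libraries between 14870 and 30470 CPM. Genes under 2 kb of exon had a median deviation from the median F1 testis library of -0.33 in dose 2 B (log2) and 0.43 in dose 2 C, while genes over 6 kb had 0.20 and -0.28. Members over 4 kb had 0.50 in dose 2 B and -0.41 in dose 2 C. With dose 2 B and C left out, dose 2 A alone gave a median of -0.18, with 9 members above 0, the lone library being assumed to vary like the others. With an offset for exon length the medians were -0.20 at dose 1 (6 members above 0) and 0.0064 at dose 2 (20 above 0), with no member past the threshold.

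**Figure D3:**
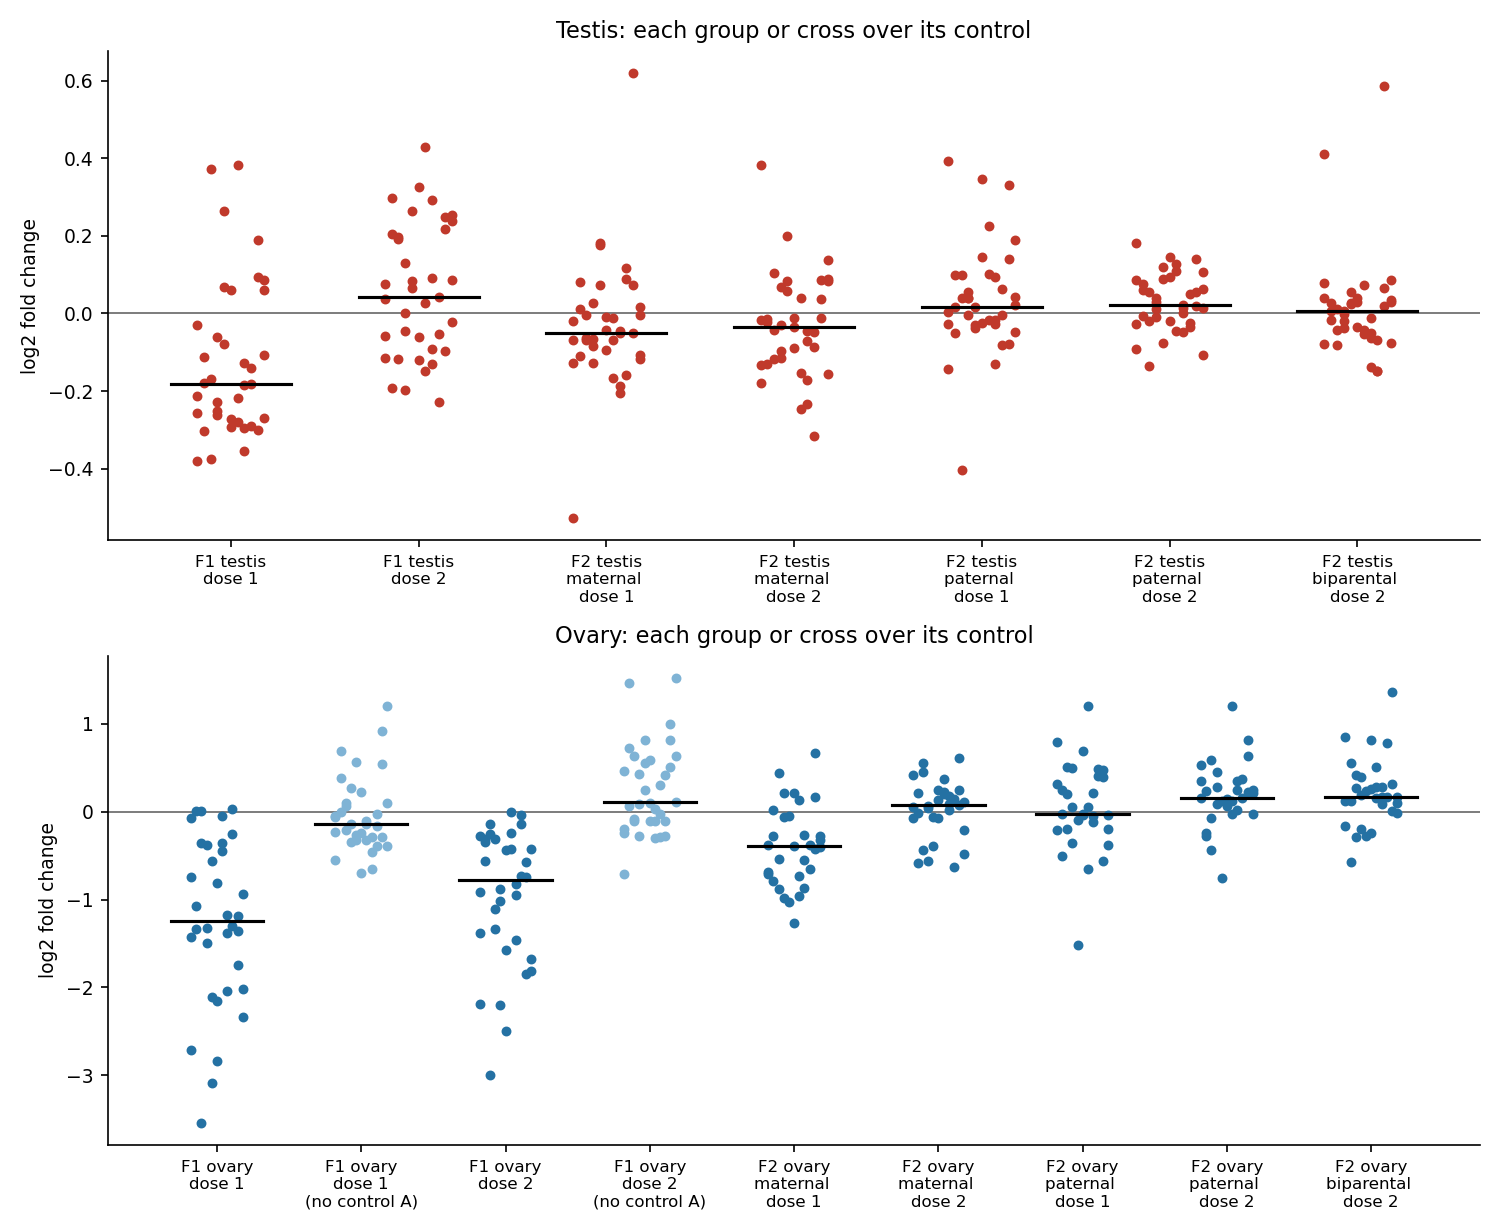
The log2 fold change of each member over its control is plotted for every exposed F1 group and F2 cross, one point per member, with a line at the median; F1 ovary is also shown without control library A. F2 testis medians lie between -0.0493 and 0.0225, and the F1 ovary medians at dose 1 and dose 2 are -0.14 and 0.11 without control library A, against -1.25 and -0.78 with it.

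F2 testis showed the least spread. The mean log2 CPM over the members was 5.05 ± 0.03 in biparental dose 2, 5.06 ± 0.04 in paternal dose 2, 5.01 ± 0.02 in maternal dose 2, 5.07 ± 0.08 in paternal dose 1, 5.00 ± 0.11 in maternal dose 1 and 5.04 ± 0.05 in the control cross (SD, n = 3 each). Stag3 varied least, between 561 and 627 CPM over the 18 libraries, and Mei4 most, between 0.279 and 1.08 CPM. The medians of the 5 crosses over the control cross, which share those 3 control libraries, were 0.00717 (biparental dose 2), 0.0225 (paternal dose 2), -0.0337 (maternal dose 2), 0.0171 (paternal dose 1) and -0.0493 (maternal dose 1). With each library left out they lay between -0.0952 and 0.0485, and those of biparental dose 2 and paternal dose 1 turned sign, to -0.0104 without control cross C and -0.0264 without paternal dose 1 A.

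Maternal dose 2 had the most non-overlapping members in F2 testis, 9 lower and 3 higher than the control cross, where 10.6% and 10.9% of all genes were so placed. The 9 were Terb1, Sycp2, Smc1b, Ankrd31, Ythdc2, Msh4, Tex15, Sycp1 and Spata22, and the 3 were Hsf2bp, Psmc3ip and Stag3. None passed the test (edgeR), where 0.372% of 19379 genes did. Those 72 genes became 0 without control cross A. Of the members, 3 were at an unadjusted p under 0.05, all lower, against 7.48% of genes lower and 15.7% in either direction. Terb1 had the lowest p, with 37.9, 35.5 and 37.6 CPM in maternal dose 2 against 41.0, 45.4 and 39.2 CPM in the control cross (adjusted p = 0.244). Sycp2, a lateral element protein, had 422, 410 and 377 CPM in maternal dose 2 against 470, 466 and 427 CPM in the control cross. Smc1b had 207, 228 and 205 CPM in maternal dose 2 against 251, 251 and 252 CPM in the control cross. Members over 4 kb had a median log2 fold change of -0.125 in this comparison and those under 2 kb of -0.0140.

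The other F2 testis crosses gave fewer. Maternal dose 1 had 2 members all above and 3 all below the control cross (5.71% and 6.14% of genes), with 3 at an unadjusted p under 0.05 (6.54% of genes) and none past the threshold (0.0103% of genes). Sycp2 had 420, 382 and 380 CPM there, all under the control cross libraries (log2 fold change -0.20 ± 0.07, adjusted p = 0.73). In paternal dose 1, Syce3 had 31.4, 30.5 and 33.3 CPM against 31.2, 46.6 and 48.3 CPM in the control cross, where library A overlaps them (log2 fold change -0.40 ± 0.13, adjusted p = 0.213). No member passed there, where 0.201% of genes did (39 genes, or 3 without paternal dose 1 B), and 2 were at an unadjusted p under 0.05, against 12.5% of genes. Biparental dose 2 and paternal dose 2 had no member past the threshold (0.0155% and 0.00516% of genes) and none at an unadjusted p under 0.05 (7.02% and 5.02% of genes). Their lowest p values belonged to Mnd1, with 3.22, 3.35 and 4.70 CPM in biparental dose 2 against 2.11, 3.23 and 3.15 CPM in the control cross (adjusted p = 0.767), and to Spo11, with 59.5, 54.4 and 53.7 CPM in paternal dose 2 against 63.2, 63.1 and 54.2 CPM in the control cross (adjusted p = 0.989). Both pairs of groups overlap.

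Hsf2bp, a BRCA2-binding protein of meiotic recombination, had all libraries above the control cross in 3 of the 5 crosses. It had 52.5, 53.1 and 50.4 CPM in maternal dose 2, 56.9, 51.5 and 53.4 CPM in paternal dose 1 and 50.5, 51.2 and 51.1 CPM in paternal dose 2, against 47.0, 48.6 and 46.3 CPM in the control cross. The 3 comparisons rest on the same control libraries, and none passed the threshold. Members so placed numbered 2 each in paternal dose 1 and paternal dose 2, where 8.65% and 5.17% of genes were.

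Prdm9 had the lowest p among members in both direct comparisons of maternal with paternal crosses in testis. It had 6.61, 7.40 and 6.67 CPM in maternal dose 2 against 9.17, 8.85 and 8.76 CPM in paternal dose 2 (log2 fold change -0.37 ± 0.12, adjusted p = 0.153). It had 7.59, 7.99 and 6.25 CPM in maternal dose 1 against 9.74, 8.83 and 10.1 CPM in paternal dose 1 (-0.39 ± 0.12, adjusted p = 0.234). In both, every maternal library lay below every paternal one, while the control cross at 9.78, 7.27 and 7.44 CPM overlapped both. In these comparisons 4 members each lay wholly lower (9.73% and 8.33% of genes for dose 2 and dose 1), and 0.119% and 0.0413% of genes and no member passed. The 23 genes called at dose 2 became 0 without maternal dose 2 C, and the 8 at dose 1 became 1 without maternal dose 1 A. At an unadjusted p under 0.05 there were 6 members at dose 2 (16% of genes) and 9 at dose 1 (11.5% of genes).

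In F1 ovary, 12 of the 34 members tested were at an unadjusted p under 0.05 at dose 1, all with lower values. Of all genes, 6.01% were so placed with lower values and 8.33% in either direction. The result for the members turned on 1 control library. With all 9 libraries the median log2 fold change was -1.25 at dose 1 (3 of 34 above 0, against 49.5% of genes) and -0.78 at dose 2 (0 of 34 above 0, against 45% of genes). The medians over all 17896 genes were -0.00168 and -0.0173. No member and no gene passed (0% in both comparisons, by edgeR), and at dose 2 the members at an unadjusted p under 0.05 were 2, against 3.75% of genes. Without control A the medians were -0.14 (11 of 34 above 0) and 0.11 (21 of 34 above 0), and again none passed, with 2 and 3 members at an unadjusted p under 0.05.

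Control A was the highest of the 9 F1 ovary libraries in 32 of 37 members. The share of all genes so placed is not given here. Over all genes tested, control A also deviated most from the median library, with a root mean square log2 deviation of 1.11. In the other F1 ovary libraries it was 0.305 to 0.513. Sycp1 had 14.8, 0.853 and 0.894 CPM in controls, 0.846, 0.254 and 1.41 CPM at dose 1 and 1.55, 1.18 and 0.896 CPM at dose 2. Sycp3 had 20.5, 5.38 and 3.02 CPM in controls, 5.26, 1.88 and 4.34 CPM at dose 1 and 3.75, 4.57 and 5.11 CPM at dose 2. Apart from the first control library, the 3 groups overlap in both genes. The excess of control A over the mean of controls B and C, as a percent of the F1 testis control level, had a median of 8.84 over 23 members (5.35 to 13.1), 9.26 over 12 round spermatid markers (7.26 to 14) and 9.22 over 12 elongating spermatid markers (5.95 to 12). The 23 had at least 10 CPM in F1 testis controls and controls B and C below 10% of that level. Over all 28 members with at least 10 CPM, which adds Syce2, Tex15, Msh5, Mlh3 and Ythdc2, the median was 9.05 (2.07 to 13.1). In the members under 10 CPM the excess ran from -44.8 (Mnd1) to 22.1 (Rec114). It was also below 0 in Trip13 (-18.5) and Prdm9 (-10.6). Prm1, the protamine that packs sperm DNA, had 249 CPM in control A and 6.43 and 8.94 CPM in controls B and C. The oocyte genes Gdf9 and Zp3 were not raised in it, at 157 CPM against 154 and 176 CPM for Gdf9 and 105 CPM against 98.5 and 103 CPM for Zp3. The Y-linked gene Ddx3y had 0.918 CPM in control A and 0 CPM in controls B and C.

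**Figure D4:**
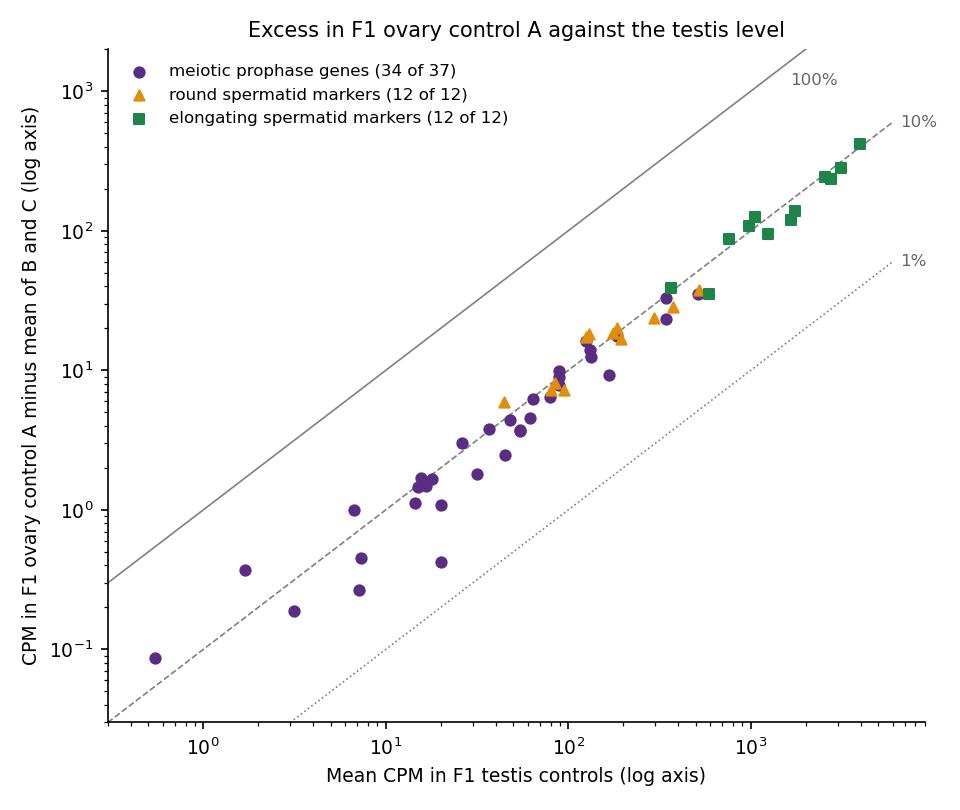
The excess of F1 ovary control A over the mean of controls B and C is plotted in CPM against the F1 testis control level in CPM on log axes, for 34 of 37 members and for round and elongating spermatid markers, with lines at 1, 10 and 100% of the testis level. Most members and all spermatid markers lie near the 10% line. The excess of Trip13, Prdm9 and Mnd1 was below 0 and is not drawn.

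A few members had all 3 F1 ovary libraries of a dose below all 3 controls, among them Tex15 at both doses, Hsf2bp at dose 1 and Ythdc2 at dose 2. Hsf2bp had 1.80, 1.63 and 1.81 CPM at dose 1 against 6.43, 2.2 and 3.26 CPM in controls (log2 fold change -1.18 ± 0.36, adjusted p = 0.55; -0.65 ± 0.24 without control A). Ythdc2 had 20.7, 17.7 and 18.3 CPM at dose 2 against 24.1, 22.3 and 22.4 CPM in controls (-0.28 ± 0.09, adjusted p = 0.814; -0.246 ± 0.105 without control A). Tex15 had 96.4, 80.5 and 78.9 CPM at dose 1 and 74.8, 95.4 and 97.2 CPM at dose 2, against 117, 103 and 112 CPM in controls. Members so placed numbered 5 at dose 1 and 2 at dose 2, among 5.47% and 3.77% of genes. Dose 2 against dose 1, which does not use the controls, had 26 of 34 members above 0 (49.9% of genes), a median of 0.345 (0.138 without dose 1 B) and 7 members wholly higher (5.7% of genes). No member passed (0% of genes) and none was at an unadjusted p under 0.05 (6.02% of genes). In the same comparison all 12 oocyte, 12 round spermatid and 12 elongating spermatid markers were above 0, with medians of 0.35 for oocytes, 0.75 for round and 0.74 for elongating spermatids, and their part in the members' values was not tested. Prm1 had 16, 16.3 and 5.34 CPM at dose 2 against 4.88, 2.44 and 14.3 CPM at dose 1.

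In F2 ovary the mean log2 CPM over the members was 0.20 ± 0.07 in biparental dose 2, 0.12 ± 0.09 in paternal dose 2, 0.05 ± 0.10 in maternal dose 2, 0.04 ± 0.10 in paternal dose 1, -0.46 ± 0.51 in maternal dose 1 and 0.00282 ± 0.205 in the control cross (SD, n = 3 each). Of the 37 members 31 were tested, and no member passed in any cross. Round spermatid markers summed to 1.72 to 3.82 CPM in these 18 libraries.

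Maternal dose 1 held the widest spread, from libraries B and C. Library C was the lowest of the 18 F2 ovary libraries in 18 of the 31 members tested, and in 27.3% of all 17400 genes tested. Tex15 had 78.3, 46.1 and 8.36 CPM in maternal dose 1 against 89.0, 48.1 and 79.8 CPM in the control cross. Sycp3 had 4, 1.35 and 0.523 CPM in maternal dose 1 against 3.34, 4.94 and 3.28 CPM in the control cross. Smc1b had 5.65, 1.06 and 0.728 CPM in maternal dose 1 against 4.01, 4.21 and 3.70 CPM in the control cross. Library A lay among the control cross libraries in Tex15 and Sycp3 and above all of them in Smc1b. Library C lay far below them in each. Library B also lay below all of them in each, though in Tex15 only just. Dmc1 had 0.558, 0.189 and 0.0560 CPM in maternal dose 1 against 0.671, 0.364 and 0.435 CPM in the control cross, the last maternal value resting on very few reads. Of 12 oocyte markers, library C was the highest of the 18 libraries in 4 and below the median of the 16 libraries other than B and C in 2. Of all 17400 genes tested, C was the highest in 23.2% and below the median of those 16 in 8777. Zp3 had 182 CPM in C against 73.6 to 154 CPM in those 16, and Gdf9 223 CPM against 118 to 260 CPM. Nlrp5 was near the lowest at 66 CPM in C against 65.7 to 143 CPM, and Bmp15 had 47.2 CPM against a median of 51.6 CPM.

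Library C also stood apart in other measures. The 8 granulosa cell markers summed to 10970 CPM in C, against 6671 to 9782 CPM in the 16 libraries. Of the 8, C was the highest of the 18 in 3, against 23.2% of all genes tested, and below the median of the 16 in 3. Amh had 848 CPM in C against 329 to 564 CPM, Foxl2 490 CPM against 230 to 421 CPM and Inha 7250 CPM against 4250 to 6270 CPM. Nr5a2 was the lowest of the 18 in C, Fst had 314 CPM against a median of 405 CPM and Cyp19a1 32.9 CPM against 45.9 CPM. The root mean square log2 deviation from the median library was 0.79 in C, the largest of the 18, with biparental dose 2 C next at 0.596. Among the 18 members at 1 CPM or more, those over 4 kb of exon had a median deviation of -1.22 in C (log2), those of 2 to 4 kb of -0.416 and those under 2 kb of -0.0908. With an offset for exon length the members' median in maternal dose 1 over the control cross was -0.356, against -0.392 without it. The part of the granulosa cell markers in the members' values was not tested.

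With all 3 libraries, maternal dose 1 had a median of -0.39 over the control cross, 7 of 31 members above 0 (49.1% of genes), 1 at an unadjusted p under 0.05 (13.1% of genes) and none past the threshold (0% of 17400 genes). That member was Terb1, with 0.326, 0.703 and 0.168 CPM in maternal dose 1 against 0.889, 1.21 and 0.741 CPM in the control cross (log2 fold change -1.27 ± 0.49, adjusted p = 0.353). Without library A, 4 members were called lower, Sycp2, Sycp3, Smc1b and Dmc1. In that fit 7.71% of 17634 genes were called in either direction, and the share called lower is not given here. Smc1b then had a log2 fold change of -2.17 ± 0.275 (adjusted p = 0.00333, edgeR) and Sycp2 of -2.2 ± 0.465 (adjusted p = 0.0191). Without library C the median was -0.12 and no member passed. The calls therefore depend on which library is left out.

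**Figure D5:**
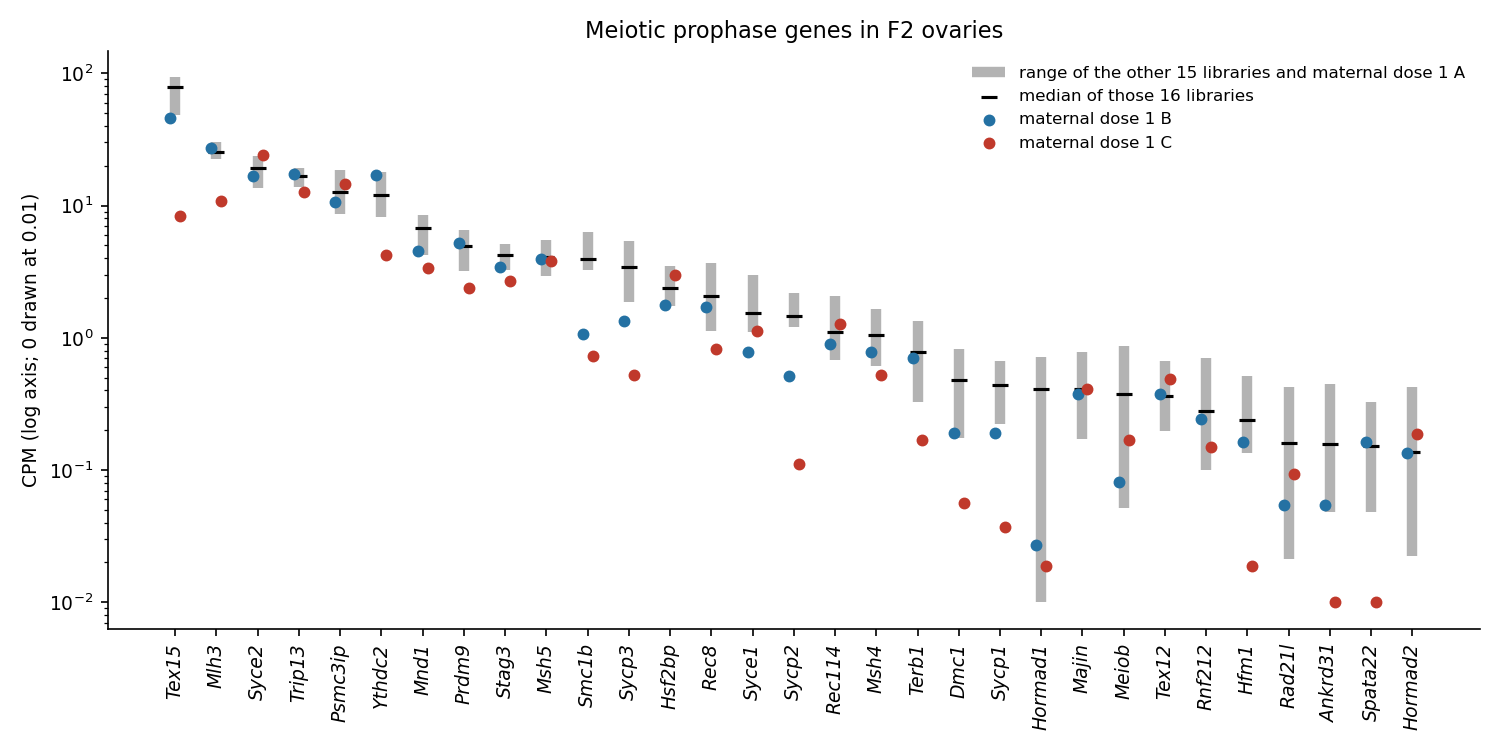
The level in CPM (log axis) is plotted for each of the 31 members tested in F2 ovary, with maternal dose 1 B and C as points beside the range and median of the 16 other libraries. Library C is the lowest of all 18 libraries in 18 members, among them Tex15, Sycp3 and Smc1b.

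Maternal dose 1 against paternal dose 1 gave 6 of 31 members above 0 (50.9% of genes), a median of -0.285, 7 members wholly lower (7.44% of genes) and none past the threshold (0.00575% of genes). At an unadjusted p under 0.05 were 6 members, against 12.6% of genes. Ankrd31 had 0.140, 0.0541 and 0 CPM in maternal dose 1 against 0.282, 0.223 and 0.343 CPM in paternal dose 1 (adjusted p = 0.374, edgeR). These are 6, 2 and 0 reads against 12, 10 and 16 reads. Without maternal dose 1 C the median was -0.15, with 10 of 31 members above 0, no member called (lowest adjusted p = 0.978, edgeR) and 0 at an unadjusted p under 0.05. Without maternal dose 1 A, 7 members were called lower, Sycp1, Sycp2, Sycp3, Smc1b, Ankrd31, Dmc1 and Tex15. In that fit 6.12% of 17634 genes were called in either direction, and the share called lower is not given here. Some of these calls rest on very few reads: in maternal dose 1 B and C, Ankrd31 had 2 and 0 reads, Sycp1 7 and 2, and Dmc1 7 and 3. Maternal dose 2 against paternal dose 2 had a median of -0.14, 10 of 31 members above 0 (49.6% of genes), no call (0% of genes) and 2 members at an unadjusted p under 0.05 (2.38% of genes).

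The other F2 ovary crosses, which share the control cross, gave medians of 0.17 (biparental dose 2), 0.16 (paternal dose 2), 0.0778 (maternal dose 2) and -0.0236 (paternal dose 1). Without control cross B these were 0.344 (biparental dose 2), 0.388 (paternal dose 2), 0.139 (maternal dose 2) and 0.201 (paternal dose 1), and without maternal dose 2 C that of maternal dose 2 was 0.0103. Msh5 had 5.15, 4.86 and 4.82 CPM in paternal dose 1 and 5.44, 4.40 and 4.49 CPM in paternal dose 2, against 3.70, 3.23 and 3.57 CPM in the control cross. Every paternal library lay above every control library, with a log2 fold change of 0.50 ± 0.16 at dose 1 (adjusted p = 0.636) and 0.45 ± 0.16 at dose 2 (adjusted p = 1). Paternal dose 1 had 15 of 31 members above 0 (47.8% of genes), 3 wholly higher (6.9% of genes), 2 at an unadjusted p under 0.05 (4.97% of genes) and none past the threshold (0.00575% of genes). Paternal dose 2 had 24 of 31 members above 0 (49.4% of genes) and 6 members wholly higher (5.74% of genes), with 3 at an unadjusted p under 0.05 (3.82% of genes) and 0% of genes past the threshold. Majin, the membrane-spanning tether, had 0.672, 0.776 and 0.469 CPM in biparental dose 2 against 0.308, 0.172 and 0.259 CPM in the control cross (1.36 ± 0.34, adjusted p = 0.462). Biparental dose 2 had 24 of 31 members above 0 (54.8% of genes), 4 members wholly higher (7.94% of genes), 2 at an unadjusted p under 0.05 (9% of genes) and 0% of genes past the threshold. Maternal dose 2 had 20 of 31 above 0 (48.8% of genes), none at an unadjusted p under 0.05 (6% of genes) and 0% of genes past the threshold. Its lowest p was that of Majin, at 0.418, 0.463 and 0.254 CPM, where the last value overlaps the control cross (adjusted p = 0.927). In the same crosses 11 of 12 oocyte markers each were above 0 in biparental dose 2, paternal dose 2 and maternal dose 2, with medians of 0.27, 0.17 and 0.31, and their part in the members' values was not tested.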

How the data were processed

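The authors deposited raw read counts per gene, 1 table for the 27 testis libraries and 1 for the 27 ovary libraries. Per the labels' protocols, RNA was extracted with TRIZOL and libraries were made with Illumina's Stranded mRNA Prep Ligation kit. Per the submitters' processing notes, reads were handled with TopHat2 2.1.1 and Bowtie2 2.4.5 on mm39 and counted with featureCounts 2.0.3, and the notes also list SAMtools 1.13, bcl2fastq 2.20, FastQC 1.19 and DESeq2 1.32.0. Which gene annotation was counted, and whether by strand, is not given in the sources used here. All columns were mapped to a sample by their names.

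Here edgeR 4.0.16 (R 4.3.3, limma 3.58.1) fitted the counts of each tissue and generation over all its groups, with TMM scaling, filterByExpr at a minimum count of 10, the quasi-likelihood test and Benjamini-Hochberg adjustment over all genes tested (threshold 0.05). Testis was compared with ovary in controls by 1 fit of both tissues per generation. CPM values are scaled by the TMM factors of the fit they belong to, so CPM in the comparison of tissues is on a different scale from CPM within a tissue. Mean log2 CPM used a prior count of 2. DESeq2 1.42.0, RLE scaling, no filter, a replicate block, each library left out and, chosen after seeing the data, no scaling, a length-dependent offset and pairs of libraries left out were the alternatives.

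Exon lengths came from GENCODE M21 on GRCm38, another build than that of the counts, and cover 96.1 to 96.8% of genes tested. Promoters are RefSeq entries, the first listed per gene. The models were tested on simulated data. The 37 members and all lists were chosen with earlier results of these data known. Described by library were, in each comparison with a control, the member with the lowest p, the 5 members with the highest and the 5 with the lowest fold change between tissues in F1, the highest and lowest members of each role by length-scaled level, and members of libraries that stood apart, which were chosen after their values were seen. No pair of libraries of a group agreed within sampling noise.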

Additional observations from a re-analysis of the deposited data

How the results depend on the processing

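In all 20 comparisons within a tissue the main number of members called was 0, where only another 0 counted as kept. The number of members called stayed at 0 or within 1.5 times its main value in 292 of 294 alternatives. The exceptions were F2 ovary maternal dose 1, with 0 to 4 members called over the leave-one-out fits against the control cross and 0 to 7 against paternal dose 1, the highest values being those without library A. With a replicate block there were 0 members in each comparison within a tissue, and 34 (F1) and 35 (F2) between tissues. The labels tie no letter to a shared animal or batch, and same-letter correlations of deviations lay between -0.583 and 0.452. In F2 testis 14 of 18 libraries had their best match in a library of their own letter (4 of 18 in F2 ovary), and with the block 297 genes were called in maternal dose 2 over the control cross and 84 in paternal dose 1, against 72 and 39 without it. DESeq2 called 32 members in F1 and 36 in F2 between tissues, RLE scaling 36 in F2, all higher, and no scaling 31 higher and 2 lower in F1 and 34 and 2 in F2. Log2 fold changes of testis over ovary near 0 turned sign or gained a call. In F1, Mnd1 was 0.0457 with RLE scaling and 0.0426 with DESeq2, Trip13 was 0.0545 and 0.0528, and Tex15 was -0.27 with no scaling and -0.057 to 0.25 with each library left out, the lowest being without testis control A. In F2, Trip13 was -0.0065 with no filter, -0.319 with no scaling and -0.0565 to 0.046 with each library left out, below 0 without ovary control cross B or testis control cross A (-0.035), and Rec114 was -0.0498 with no scaling. Trip13 in F2 was called higher with RLE scaling and by DESeq2 (0.427 in both) and lower with no scaling, Rec114 in F2 was called higher at 0.688 and 0.689 by the same pair, and with no scaling Trip13 (-0.58) and Mnd1 (-0.59) were called lower in F1. The causes were not tested. Calls lost were Mnd1 in F2 (-0.534 without ovary control cross B, -0.395 with RLE scaling, -0.396 with DESeq2, -0.668 with only the 6 libraries compared), Prdm9 in F1 (0.367 without testis control A, 0.177 with no scaling, 0.543 with only the 6 libraries) and Ythdc2 in F1 (0.521 with no scaling). The number of libraries, members with few reads in ovary and exon lengths from another build limit the precision.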

Other observations

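A list of further meiotic genes, drawn from textbook knowledge and not overlapping the 37, held 47 genes with counts. Like the other lists, it was chosen with earlier results of these data known, so it is not an independent set. In control animals 40 of the 47 were higher in testis in each generation and 39 in both, 4 were lower in F1 and 6 in F2 (edgeR, adjusted p at most 0.05), with medians of 3.69 (F1, or 3.96 without ovary control A) and 4.41 (F2). Of all genes tested, 41.9% (F1) and 43.6% (F2) were higher in testis, and 41.6% (F1) and 44.3% (F2) lower. Kctd19, a partner of the pachytene regulator ZFP541, had 512, 545 and 544 CPM in F2 testis control crosses against 0.0363, 0.0191 and 0.0470 CPM in F2 ovary control crosses, each on its own tissue's scale, and a log2 fold change of 14.04 ± 0.25. Stra8, the switch for meiotic entry, had 10.7, 10.7 and 8.50 CPM in F2 testis control crosses and was listed at 0 in all 3 F2 ovary control crosses.

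Among the genes lower in testis in F2 were H2ax, the histone phosphorylated at DNA breaks, with a log2 fold change of -1.04 ± 0.11, and Cpeb1, a translational regulator in oocytes, with -0.85 ± 0.12.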
